A study of Mus musculus with 6 samples.

Results

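The genes described here are 10 Wnt antagonists and feedback genes, Axin2, Nkd1, Notum, Dkk1, Dkk2, Dkk4, Sfrp1, Sfrp2, Frzb and Wif1, out of the 21755 protein-coding genes that GENCODE vM21 places on the autosomes and X. They were chosen by name for their role in the pathway, with earlier results of these data known. A peak was taken as theirs when it overlapped the gene body or the 5 kb on either side, and is then called a peak at the gene. A peak farther away was taken as theirs, and called distal, when its edge lay up to 100 kb from a start site of the gene and no other protein-coding start site was nearer. The marked chromatin was H3K4me1, monomethylated lysine 4 of histone H3, a mark enriched at active and poised enhancers, and was mapped by CUT&Tag: an antibody tethers a transposase that cuts and tags the DNA around it. The samples were whole whisker pads of wild-type B6/J2 mice at E12, digested to single cells, and peak lists of 3 pads (replicates 1, 2 and 3) were analysed. The 3 IgG samples of the series were not analysed here, and there is no treatment or mutant, so the lists describe 1 state of the tissue and allow no test between conditions. The labels give pads by number and do not say how many embryos went into each, so that the spread between replicates may be technical in part.

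Wnt ligands bind Frizzled receptors and the Lrp5 and Lrp6 co-receptors, which lets beta-catenin escape the destruction complex and act with TCF and LEF factors on target genes. Several of those targets act back on the pathway: Axin2 is the scaffold of the destruction complex, Nkd1 binds Dishevelled, and Notum is a secreted enzyme that removes the lipid by which Wnt binds its receptor. Dkk proteins are secreted and occupy the Lrp co-receptors, whereas the Sfrp proteins, Frzb and Wif1 bind Wnt itself. In skin, Wnt signalling is required for the first steps of hair and whisker follicles, and Dkk proteins are known to block them.

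Of the 10 genes, 8 had a peak at the gene in every replicate, and Notum and Dkk4 had none in any. Over all protein-coding genes, a peak at the gene was present for 24.9% in replicate 1, 22.6% in replicate 2 and 19.6% in replicate 3, and for 15.5% in all 3 lists. Among genes of similar length (the same decile of gene length), that last share ranged from 7.44% for the class of Sfrp2 and Notum to 26.2% for the class of Nkd1, Dkk2 and Wif1. With distal peaks included, the same 8 genes had a peak in each list, against 18.8% of all genes. Axin2, Nkd1, Sfrp1 and Sfrp2 carried broad, strong peaks within and around the gene, Frzb had a strong peak at its 3′ end, Wif1 had several peaks of middle strength, and Dkk1 and Dkk2 had 1 weaker recurrent peak each, at the start of the gene.

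The lists held 16788, 12969 and 13998 peaks in replicates 1, 2 and 3. The study names the same nominal depth for all samples, and the reads that each library yielded are not part of the lists. The summed total signal, the pileup of fragments added over the bases of all peaks, was 822360552, 985881531 and 744342185. Because it is not scaled to depth, each peak was given as a percentile by total signal within its own list, in which the median peak stands at 50, and each gene's signal as parts per 1000000 (ppm) of its list. The weakest peak had a total signal of 14265, 24247 and 19337 in replicates 1, 2 and 3. The percentile of a weak peak thus also depends on where its list ends. Only the top 1% of signal blocks was kept by the peak caller, so genes with no peak may still carry the mark below that limit. A pad mixes cell types, and fewer cells with the mark cannot be told apart from less mark per cell.

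The source name of 2 of the H3K4me1 samples, replicates 2 and 3, is adult kidney, whereas the titles of all 3 give whisker pad. Of 12 adult kidney markers, 3, 4 and 2 had a peak at the gene in replicates 1, 2 and 3, and 2, Slc12a1 and Cubn, in all 3 (16.7%, beside 15.5% of all genes). Umod, Slc12a3 and Nphs1 were among the 8 with none in any. Of 15 facial mesenchyme markers, 15, 14 and 13 had one, and 12 in all 3 (80%), among them Alx1, Alx4 and Prrx1. Of 12 surface ectoderm markers, 8, 8 and 4 had one, and 4 in all 3 (33.3%), among them Trp63 and Grhl2, while Krt14, Krt15, Epcam and Esrp1 had none in any. For other cells that a pad can hold, 5 of 8 skeletal muscle markers (62.5%), 2 of 8 endothelial (25%), 1 of 8 neuronal (12.5%) and 0 of 8 erythroid markers had a peak at the gene in all 3. The part of tissue makeup in the values given here was not tested.

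**Figure D1:**
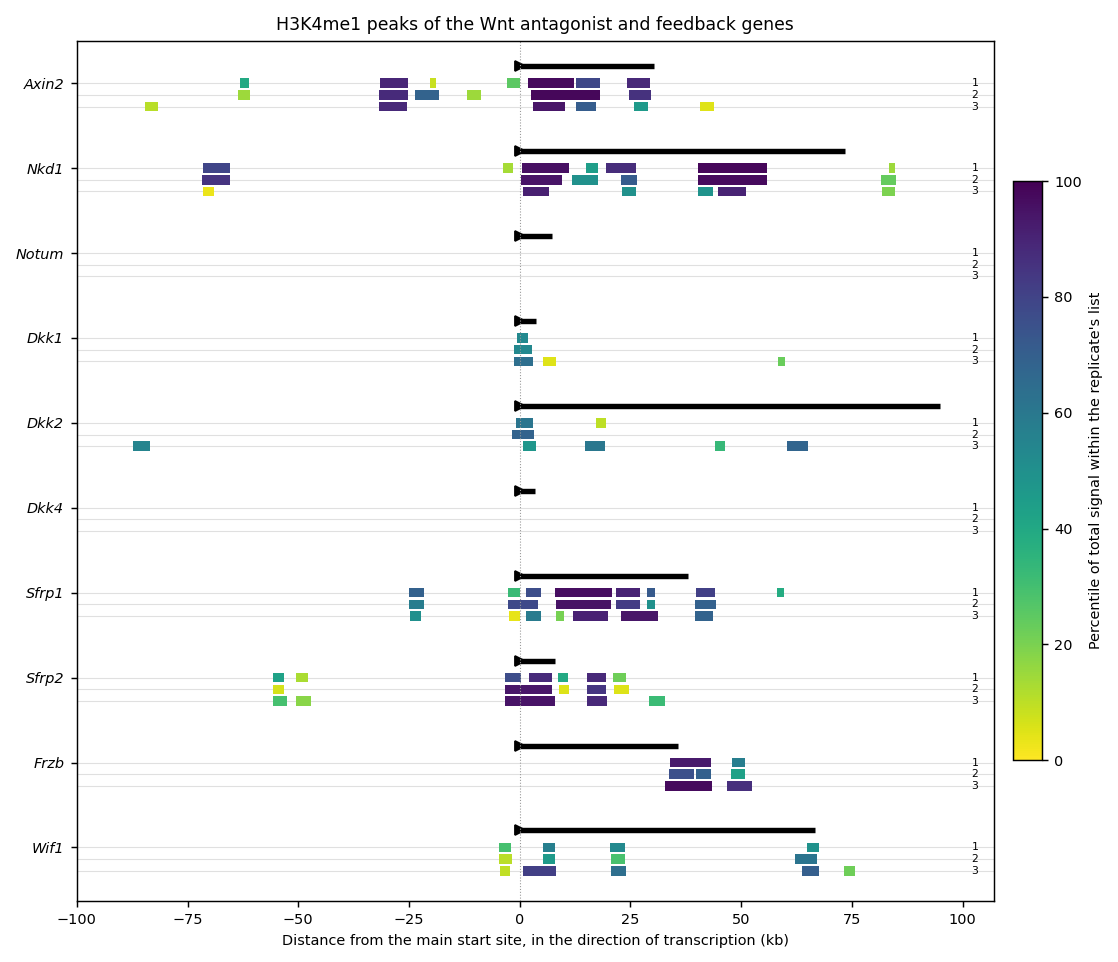
H3K4me1 peaks taken as those of each of the 10 genes, drawn by distance in kb from the main start site in the direction of transcription, with the gene body as a black bar from its arrowhead and the peaks of replicates 1, 2 and 3 on the lines so numbered at the right. Darker bars stand at a higher percentile of total signal within their list. The widest dark blocks of Axin2, Nkd1 and Sfrp1 lie inside the gene, with further dark blocks upstream of Axin2 and, in replicates 1 and 2, of Nkd1. That of Frzb lies at its 3′ end, and the lines of Notum and Dkk4 are empty.

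Together the 10 genes had 38, 32 and 39 peaks in the 3 lists (mean 36.3 ± 3.79, SD, n = 3). That is 3.63 ± 0.379 peaks per gene (SD, n = 3), against 0.682 ± 0.0993 over all protein-coding genes, of which 70.9 to 76.4% had none. Peaks at the gene numbered 26, 21 and 25, and distal peaks 12, 11 and 14. The peaks covered 171, 175 and 172 kb and held 2776, 3042 and 2938 ppm of the list signal. Their median percentile was 59.4, 68.4 and 55 in the 3 lists, a mean of 60.9 ± 6.83 (SD, n = 3). The position of highest pileup lay in an intron of the gene for 44.7, 37.5 and 46.2% of these peaks in the 3 lists. The same share over all peaks is not given, so this describes the peaks of these genes only.

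Merged across the lists, the peaks formed 44 regions, and 24 of them (54.5%) recurred in every pad, 7 in 2 pads and 13 in 1 pad. Of all 19246 merged regions, 46.3% recurred in every pad. Regions at the gene recurred in 17 of 25 cases and distal ones in 7 of 19. Neither share is given over all regions, so the contrast describes the regions of these genes only. The 24 recurrent regions had a median length of 5978 bp, against 5002 bp over all 8916 recurrent regions, and a median GC content of 49.2%, against 47.3%.

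Axin2, on the plus strand of chr11:108920349-108950783, had 7, 6 and 6 peaks in replicates 1, 2 and 3, which held 613, 751 and 478 ppm of the list signal, a mean of 614 ± 136 (SD, n = 3). The strongest block was a region of 16.4 kb at chr11:108922171-108938538, from 1.82 to 18.2 kb downstream of the start site, which was 1 peak in replicate 2 and, in replicates 1 and 3, a pair of peaks with maxima in introns 2 and 3. Its strongest peak stood at percentile 97.3, 98.2 and 94.2, so that in every list it was among the top peaks. The highest pileup lay 8578, 8576 and 8578 bp downstream of the start site, in intron 2, within 2 bp in the 3 pads. Over all recurrent regions the median distance between these positions was 513 bp, and 7.97% of them agreed to 20 bp or less. Of the 24 recurrent regions of the 10 genes, only this 1 did so, and their median distance was 614 bp. The 300 bases centred on that position, at chr11:108928777-108929076 (GRCm38, plus strand, 5′ to 3′), are shown as those of the strongest Axin2 region. Capitals in this and the later windows mark the TCF/LEF motif letters CTTTGAT or CTTTGTT on either strand, of which the Axin2 window holds none.
Axin2: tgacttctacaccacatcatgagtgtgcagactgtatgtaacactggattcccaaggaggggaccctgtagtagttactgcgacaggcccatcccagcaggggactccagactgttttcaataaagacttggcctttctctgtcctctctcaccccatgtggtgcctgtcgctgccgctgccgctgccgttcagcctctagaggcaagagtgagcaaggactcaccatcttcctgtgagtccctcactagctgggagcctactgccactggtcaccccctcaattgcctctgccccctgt
The region around this window held 10 matches to the motif, 0.611 per kb, against 0.424 per kb over all recurrent regions. A match is a run of letters and not a measured binding site.

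A distal region of Axin2 at chr11:108888617-108895161, at -31.7 to -25.2 kb from the start site (negative values are upstream), was even between pads, at percentile 89.2, 87.9 and 88.4 (SD 0.649). A region with its maximum in intron 10, at chr11:108944648-108950020, stood at 88.6 and 85.6 in replicates 1 and 2 and at 45.8 in replicate 3. The other 6 regions of Axin2 were present in 1 or 2 pads only and stood between percentile 5.05 and 68.5. Among them, the 3 peaks farthest upstream overlap the neighbouring gene Cep112 or its flank. The Axin2 start site itself lay under a weak peak in replicate 1, at percentile 25.2, and the nearest peak began 2.61 and 3.05 kb downstream in replicates 2 and 3.

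Nkd1, on the plus strand of chr8:88521354-88594884, also had 7, 6 and 6 peaks, with 746, 824 and 441 ppm of the signal and a mean of 670.2 ± 203 (SD, n = 3). Replicates 1 and 2 were alike and replicate 3 was lower. Its marked DNA lay mostly in intron 3, where 3 regions recurred in all pads. The strongest, of 15.7 kb at chr8:88561553-88577298, lay 40.2 to 55.9 kb downstream of the start site and stood at percentile 98.1, 97.6 and 90.5. The next, at chr8:88521581-88532460, began 0.227 kb from the start site and stood at 96, 94.8 and 91.3. The weakest of the 3, at chr8:88540988-88547837, stood at 87.3, 71.1 and 49.8. The window at the median maximum of the strongest region, chr8:88570579-88570878, is shown as that of the strongest Nkd1 region. It holds the motif CTTTGAT, at base 216 of the window and 49440 bp downstream of the start site. The maxima of the 3 pads lay within 310.0 bp of each other.
Nkd1: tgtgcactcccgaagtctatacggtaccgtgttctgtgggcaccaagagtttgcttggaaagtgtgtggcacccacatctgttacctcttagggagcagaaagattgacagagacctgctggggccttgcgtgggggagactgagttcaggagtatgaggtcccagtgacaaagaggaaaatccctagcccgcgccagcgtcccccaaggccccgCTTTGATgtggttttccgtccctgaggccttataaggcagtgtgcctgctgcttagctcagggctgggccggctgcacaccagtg
The region around it held 5 matches, 0.318 per kb, below the 0.424 of all recurrent regions. Outside the gene, a region of Nkd1 at -71.7 to -65.3 kb stood at percentile 79.5 and 84.9 in replicates 1 and 2 and at 2.82 in replicate 3, the widest fall between pads among the recurrent regions of the 10 genes. A region 81.6 to 84.9 kb downstream of the start site was weak in all pads, at 14.7, 23.6 and 19.9. No peak covered the start site of Nkd1. The nearest began 449, 227 and 723 bp downstream of it.

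Notum, on the minus strand of chr11:120653788-120661175, had no peak at the gene or assigned to it in any of the 3 lists. The nearest peak edge lay 42.1, 33.4 and 41.9 kb upstream of its start site in replicates 1, 2 and 3. Of the 3 feedback genes, therefore, Axin2 and Nkd1 stood at percentile 98.2 ± 0.562 and 98.3 ± 0.832 (SD, n = 3) among all genes by summed peak signal, and Notum was among the genes with no peak.

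**Figure D2:**
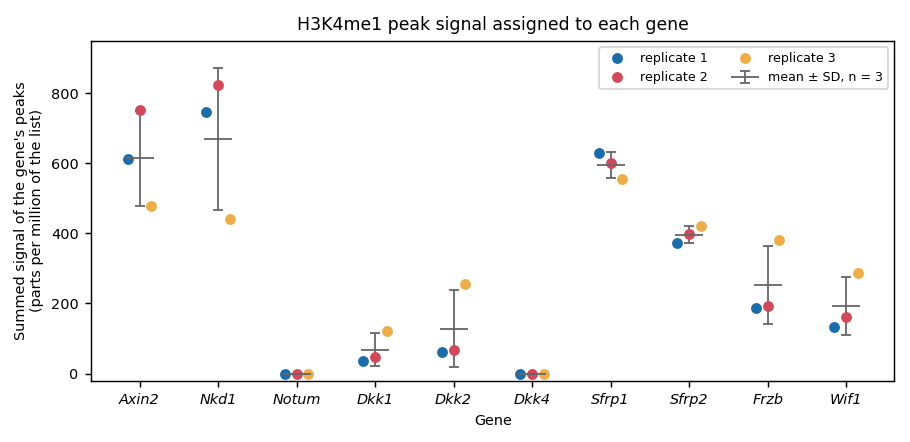
Summed total signal of all peaks assigned to each gene, in ppm of the summed signal of the list, as a point for each replicate with the mean and SD of the 3. Nkd1, Axin2 and Sfrp1 have the highest means (670.2, 614 and 596 ppm), Notum and Dkk4 are at 0, and replicate 3 is the lowest for Axin2, Nkd1 and Sfrp1 and the highest for the other 5 genes with peaks.

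Among the Dkk genes, Dkk1 is on the minus strand of chr19:30545863-30549665. It had 1, 1 and 3 peaks, with 35.6, 48.4 and 121 ppm of the signal. The peak found in every pad covered the start site (region chr19:30546609-30551044), and stood at percentile 53, 53.5 and 63.9, near the middle of each list. The 2 further peaks were found only in replicate 3, at percentile 4.98 and 22.7. The highest pileup of the recurrent region lay 804 bp downstream of the start site, in exon 2, in replicate 1, and 151 and 148 bp downstream, in the 5′ exon, in replicates 2 and 3.

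Dkk2, on the plus strand of chr3:132085292-132180304, had 2, 1 and 5 peaks, with 61.4, 67.2 and 256 ppm. Its recurrent region, chr3:132083650-132089066, stood at percentile 61, 68.4 and 47.3. It covered the start site in replicates 1 and 2 and began 680 bp downstream of it in replicate 3. The surplus of replicate 3 came from regions that were weak or without a peak in the other pads. One lay in intron 1 at 14.7 to 19.5 kb, with percentile 10 in replicate 1 and 60.4 in replicate 3. The others were a region from -87.4 kb and regions in intron 1 from 44 and 60.3 kb, found in replicate 3 alone at percentile 55, 33 and 67.9. The window at the median maximum of the recurrent region, chr3:132086974-132087273, lies in intron 1 and is shown as DNA of the 1 Dkk2 region that recurred in every pad, although the maxima of the 3 pads lay as far as 4003 bp apart and the median is the position of replicate 1.
Dkk2: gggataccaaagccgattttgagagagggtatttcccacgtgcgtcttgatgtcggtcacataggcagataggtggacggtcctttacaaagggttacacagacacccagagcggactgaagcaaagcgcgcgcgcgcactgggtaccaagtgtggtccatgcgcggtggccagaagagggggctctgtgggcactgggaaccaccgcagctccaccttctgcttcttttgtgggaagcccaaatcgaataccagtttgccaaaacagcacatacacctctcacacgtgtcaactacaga
The window holds no motif match, and the whole region holds 3, or 0.554 per kb.

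Dkk4, on the plus strand of chr8:22624043-22627547, is known as a Wnt target in ectodermal placodes. It had no peak in any list, and the nearest peak edge lay 114, 114 and 115 kb upstream of its start site. The ectoderm markers Krt14, Krt15 and Epcam were without a peak in the same lists, and the part of the epithelium's share of the pad in this was not tested.

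Of the secreted Wnt binders, Sfrp1, on the plus strand of chr8:23411502-23449632, had 8, 6 and 7 peaks with 630.0, 602 and 555 ppm, a mean of 596 ± 37.7 (SD, n = 3). The 3 pads were closer together than for Axin2 or Nkd1. The mark extended from the start site through the gene. The start region, chr8:23408933-23416412, stood at percentile 76.2, 77.8 and 58.9. In intron 2, a region of 12.8 kb at chr8:23419591-23432387 stood at 96.3, 95.2 and 91, and its neighbour at chr8:23433168-23442701 at 90.3, 82.7 and 94.2. The region beyond the 3′ end, chr8:23450982-23455890, stood at 80.9, 69.3 and 68.5, with maxima within 72 bp. A distal region at -25.1 to -21.6 kb stood at 69.4, 58.2 and 50.2. By its strongest peak, each of these 5 regions was thus at or above the middle of every list. In replicates 1 and 3 the start region was 2 peaks. The weaker, which covers the start site, stood at percentile 32.3 and 3.82 in those pads. The window shown for Sfrp1, chr8:23420700-23420999, is centred on the median maximum of the strongest region. The maxima of replicates 1 and 2 lay 9271 and 9348 bp downstream of the start site and that of replicate 3 at 13724 bp. In replicate 3 the region was 2 peaks. The window lies in the weaker, which stood at percentile 20.5 with its maximum at 9216 bp.
Sfrp1: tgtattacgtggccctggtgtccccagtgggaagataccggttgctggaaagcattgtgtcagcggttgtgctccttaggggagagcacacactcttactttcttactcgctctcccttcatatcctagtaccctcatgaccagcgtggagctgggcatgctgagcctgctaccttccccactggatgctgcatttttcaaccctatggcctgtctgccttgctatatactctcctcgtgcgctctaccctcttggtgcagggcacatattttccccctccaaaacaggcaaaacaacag
It holds no motif match, and the region around it holds 4, or 0.313 per kb.

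Sfrp2, on the plus strand of chr3:83766321-83774316, had 7, 5 and 5 peaks and 372, 397 and 420.1 ppm, a mean of 396 ± 23.9 (SD, n = 3). The pads differed little. A region of 11.4 kb, chr3:83762939-83774345, covered the start site and the gene, at percentile 88, 93.9 and 94.8. It was a single peak in replicates 2 and 3 and 2 peaks in replicate 1. Downstream, outside the 5 kb flank, chr3:83781509-83786074 stood at 88.4, 84.5 and 88.6, with maxima within 28 bp in the 3 pads. By maximum pileup that region stood at percentile 93.6, 95.1 and 99.4. The remaining recurrent region, at -55.7 to -52.6 kb, was weak, at 42.5, 6.56 and 29.4. Its shares of signal were closer, at 29.5, 26.2 and 35.1 ppm, and highest in replicate 3.

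Frzb, on the minus strand of chr2:80411970-80447625, had 2, 3 and 2 peaks with 186, 193 and 381 ppm. Its stronger region, chr2:80404211-80414867, lay over the 3′ end of the gene and beyond, 32.8 to 43.4 kb downstream of the start site, at percentile 93.1, 75.7 and 97.5. The other, chr2:80395271-80400733, lay farther downstream at 57.7, 42.6 and 86.7. Both were highest in replicate 3, and replicates 1 and 2 held like shares of signal, 147 and 152 ppm in the stronger region and 39.2 and 40.4 ppm in the other. No peak lay within 32.8 kb of the start site of Frzb. In replicate 2 the stronger region was divided into 2 peaks.

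Wif1, on the plus strand of chr10:121033960-121100650, had 4, 4 and 5 peaks with 132, 160.3 and 286 ppm. Its region with the highest mean, in intron 2 at chr10:121034823-121042091, stood at percentile 57.4, 46 and 81.4, with maxima within 79 bp. Another in intron 2, 20.5 to 24.1 kb downstream of the start site, stood at 52.9, 29.1 and 63.8, and one at the last exon at 49.6, 61.7 and 70.2. A weak peak upstream of the gene, at -4.74 to -1.84 kb, stood at 29.5, 10.3 and 9.45. By percentile, replicate 3 was highest in 3 of these 4 regions and lowest in the upstream one. By share of signal, replicate 3 was highest in the upstream region too, at 24.2, 27.1 and 28.4 ppm in replicates 1, 2 and 3.

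**Figure D3:**
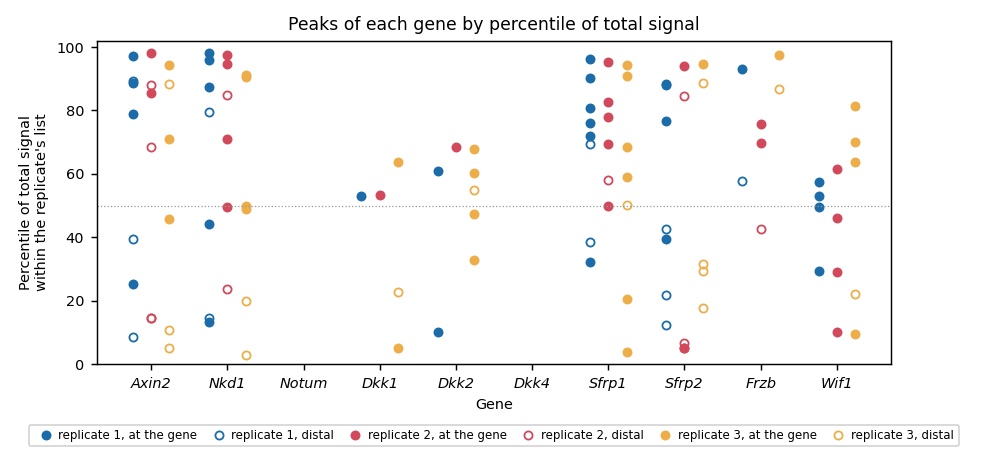
Each peak of the 10 genes by its percentile of total signal within its list, with filled points at the gene and open points distal, and a dotted line at the median of the list. The top points of Axin2, Nkd1, Sfrp1 and Sfrp2 lie above 85 in every replicate, whereas the peaks of Dkk1 and Dkk2 all lie below 70.

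By the strongest peak at the gene, the order of the means was Axin2 at percentile 96.6 ± 2.08, Nkd1 at 95.7 ± 3.79, Sfrp1 at 95.3 ± 1.04, Sfrp2 at 92.3 ± 3.69, Frzb at 88.7 ± 11.5, Wif1 at 66.8 ± 12.8, Dkk2 at 65.7 ± 4.13 and Dkk1 at 56.8 ± 6.19 (SD, n = 3 for each). The ranges of the 3 pads overlapped for every pair of neighbours in this order. Between Sfrp2, whose lowest pad was at 88, and Dkk2, whose highest was at 68.4, the values of the pads did not overlap. Over the 3374 genes with a peak at the gene in all 3 lists, the median of the same mean was 71.9. Of those genes, 90.4% stood at or below Axin2, 88.3% at or below Nkd1, 87.4% at or below Sfrp1, 41.6% at or below Dkk2 and 31.6% at or below Dkk1. By number of peaks at the gene, Sfrp1 (mean 5.67), Nkd1 (4.33), Wif1 (4), Axin2 (3), Dkk2 (2.33) and Sfrp2 (2) were above the median of 1.67 of these genes, and Dkk1 and Frzb (1.33 each) below it.

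The start sites divided the genes differently. The main start site lay under a peak in all 3 replicates for Dkk1, Sfrp1 and Sfrp2, which is 3 of 10 genes against 1.8% of all protein-coding genes. At Sfrp1 the covering peak ended 0.071 and 0.066 kb past the start site in replicates 1 and 3. There it stood at percentile 32.3 and 3.82. It was covered in 2 replicates for Dkk2, in 1 for Axin2, and in none for Nkd1, Wif1, Frzb, Notum and Dkk4. Coverage of the start site did not follow the strength of the peaks, since Dkk1 had the lowest strongest peak of the 8 marked genes and the start sites of Axin2 and Nkd1, with the highest, were mostly bare. Within the 1 kb around the start site, GC content was 63.5% at Axin2, 72% at Nkd1, 66.1% at Notum, 63% at Sfrp1 and 67.2% at Sfrp2, and lower at Dkk1 (52.8%), Dkk2 (55.6%), Frzb (55.2%), Wif1 (59.5%) and Dkk4 (47.3%), against a median of 54.9% over all genes.

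Replicate 3 differed from replicates 1 and 2 in a way that moved with the GC content of the regions. Its peaks had a median GC content of 45.7%, against 48.4 and 48.7% in replicates 1 and 2. For the recurrent regions, the log2 ratio of the signal share in replicate 3 to that in replicate 2 had a median of 0.92 in the decile of all regions with the lowest GC content and of -0.90 in the decile with the highest. The 7 recurrent regions of Sfrp1, Sfrp2, Frzb and Wif1 in the lowest 3 deciles, at 38.3 to 45.1% GC, were all higher in replicate 3, as were 95.1% of all regions there. The 7 of Axin2, Nkd1 and Sfrp1 in the highest 2 deciles, at 52.1 to 54.7% GC, were all lower, as were 96.2% of all regions there. Over the highest 3 deciles, 10 of 11 were lower and 1 higher (92% of all regions lower), and in the middle 4 deciles 3 were higher and 3 lower. The extremes were the downstream region of Frzb, with a log2 ratio of 1.53 at 38.3% GC, and the upstream region of Nkd1, with -2.11 at 54.7% GC. The ratios of replicate 1 to replicate 2 were smaller, from -0.78 to 0.46. Of the regions found in only some of the pads, the 9 found in replicate 3 alone had a median GC content of 42.7%, and the 9 found in replicate 1 or 2 or both but not in replicate 3 had 50.4%. The higher share of Frzb, Wif1 and Dkk2 and the lower share of Nkd1 in replicate 3 stand beside these GC values. What part GC content had in them was not tested.

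**Figure D4:**
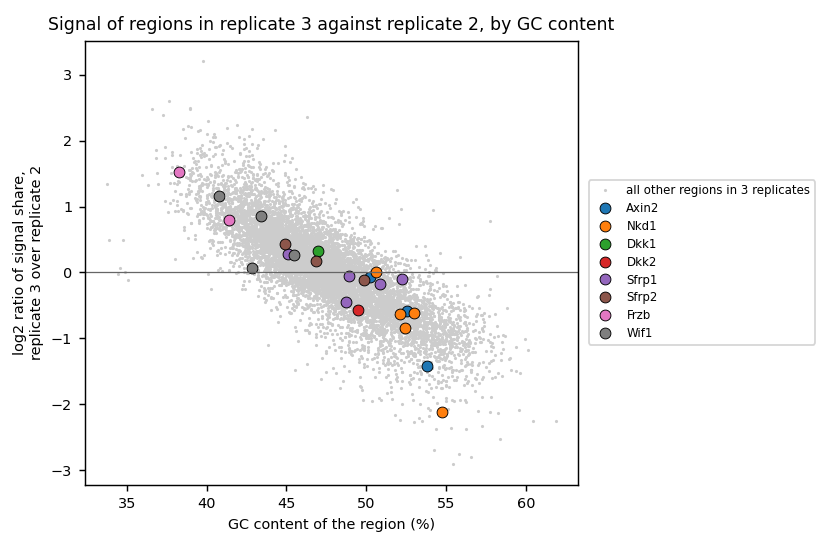
The log2 ratio of the share of signal in replicate 3 to that in replicate 2, against the GC content in percent, for the 24 recurrent regions of the marked genes (large points, coloured by gene) over the other regions of the 8916 with a peak in all 3 lists (grey). The points of the genes lie within the grey band, from 1.53 for the downstream region of Frzb to -2.11 for the upstream region of Nkd1.

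The 300 bases around the median maximum held the motif in 4 of the 24 recurrent regions (16.7%), and in 10.8% of the 8916 windows made the same way over all recurrent regions. The 4 were those of 2 Nkd1 regions, the Dkk1 region and the intron 2 region of Wif1. Across whole regions, the genes' regions held 0.471 matches per kb, against 0.424 for all. The most dense were the downstream region of Frzb at 1.1 per kb, the intron 2 region of Wif1 at 0.963 and the Dkk1 region at 0.902, and no match was found in 4 of the 24.

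A further list, also chosen with earlier results of these data known, held 17 other genes taken as Wnt antagonists or feedback genes. Of these, 13, 13 and 10 had a peak at the gene in replicates 1, 2 and 3, and 10 (58.8%) in all 3, against the 15.5% of all genes. The 10 included Znrf3 and Rnf43, whose products remove Frizzled from the membrane, the target repressor Sp5, and Ctnnbip1, which keeps beta-catenin from TCF. The others were Nkd2, a relative of Nkd1, the Dkk relative Dkk3, the Dkk receptor gene Kremen1, the secreted antagonists Sostdc1 and Cer1, and the membrane inhibitor Apcdd1. Over the 10, the strongest peak at the gene ranged from a mean percentile of 63.5 ± 18.1 at Apcdd1 to 91.8 ± 3.53 at Nkd2 (SD, n = 3). Kremen1 stood at 91.6 ± 1.08. Axin1, Sfrp4, Sfrp5 and Draxin had none in any list. Among related genes, Nkd1 and Nkd2 both carried strong peaks. Axin2 but not Axin1 had a peak at the gene, as did Sfrp1, Sfrp2 and Frzb but not Sfrp4 and Sfrp5. Dkk1, Dkk2 and Dkk3 had one, and Dkk4 did not. Of 12 BMP antagonist genes, 5, 4 and 4 had a peak at the gene, and 4 in all 3.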

How the data were processed

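H3K4me1 CUT&Tag was made from E12 whisker pads. Per the submitters' processing notes, which give no order of steps, Bowtie2 2.3, SAMtools 0.1.19, bedtools and SEACR 1.3 were used with build mm10. The authors called peaks in each replicate with SEACR in stringent mode, without IgG and with the top 1% of signal blocks. The deposited total and maximum signal of each peak is a sum and a maximum of fragment pileup, with no scaling to depth. Ranking by total signal favours wide peaks. Peaks were assigned to GENCODE vM21 genes and merged where they shared at least 1 bp, with Python 3.11.15, numpy 2.4.6, pandas 2.3.3 and pysam 0.24.0. GC content and sequences came from the RefSeq copy of GRCm38, and positions are 1-based. Assignment and merging were checked on simulated data. Samples were grouped by their titles. The members and the gene lists (other Wnt antagonists, BMP antagonists and markers of facial mesenchyme, surface ectoderm, adult kidney, endothelium, erythroid, skeletal muscle and neuronal cells) were chosen with earlier results of these data known. All 10 members were named, with those other Wnt genes that had a peak at the gene in all 3 lists. The marker genes named, and the other Wnt genes with no peak, were chosen after their values were seen. For each member, the region with the highest mean percentile was described. Up to 4 windows were printed, taken by mean percentile within the feedback genes, the Dkk genes and the secreted Wnt binders, and then over all. Values are means with SD over the 3 pads. No test was made, since there is 1 group. Alternatives covered the peaks used, the distances, the signal measure, GC content, gene length and each replicate left out.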

Additional observations from a re-analysis of the deposited data

How the results depend on the processing

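Of 77 alternatives to the 9 main values, 69 moved them by less than the spread between replicates or, for a count, by at most 1.5 times. With no flank, or with the highest pileup required within the gene and its flank, the mean share of the other Wnt genes with a peak at the gene was 56.9%, against 70.6%. Under the latter the members with a peak in all lists numbered 7, without Frzb, whose maxima in 2 pads lie beyond the flank. Using the stronger 50% of each list left, by construction, a mean of 21.3 peaks and 13 regions in all 3 replicates, and a pairwise overlap of at least 50% left 15 regions. With the stronger 50% of each list, or an equal number of the strongest peaks from each, 2 start sites in place of 3 were covered in all lists. The start site lost was that of Sfrp1. With a peak within 1 kb counted, 5 start sites were marked, as Nkd1 and Dkk2 joined. The median over the members of the strongest peak's percentile was 89.4 by total signal, 84.8 by maximum signal and 81.1 per base of the peak, and the cause was not tested. Leaving out each replicate gave 8 to 8 members with a peak at the gene in all lists and in the mean, 67.6 to 76.5% of the other Wnt genes, 35 to 38.5 peaks, 24 to 30 regions, 3 to 4 start sites, and percentiles of 57.2 to 63.9 (all peaks), 87.7 to 91.7 (strongest peak) and 92.4 to 94.4 (gene, main value 93.7). The counts of members and of start sites in all lists could not fall when a list was left out. For single genes, 28 of 118 alternatives moved the value by more than its spread. Among them, Dkk2 stood at 50.5 by maximum signal, against 65.7. No paired analysis was possible because the peak lists used here are of 1 group.

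The number of pads, 3, a fixed share of blocks kept and read numbers that the lists do not hold limit the values. A missing peak can be a block just under the limit of the list, and peaks were assigned by distance alone, without contact data.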
